A study of Mus musculus with 10 samples.

Results

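A set of 10 immediate early genes is described here in mouse melanoma cells given interferon gamma (IFN-γ), out of 77175 entries in the count table. They are Egr1, Nr4a1, Nr4a3, Fos, Fosb, Fosl1, Jun, Junb, Ier2 and Ier3, found by symbol, with 1 entry each. The set was picked because Egr1 and Nr4a3 answered IFN-γ differently in 2 cell lines, so that difference is given as a description and carries no test. Of the 10 genes, 9 had counts and passed the filter on low counts, as did 15526 entries of the whole table, and Fosl1 had no counts in any library. RNA was sequenced in bulk from 4 groups. The OVA line is B16-F10, a mouse melanoma line, carrying the lentiviral expression vector pLV[Exp]-Neo-EF1A>{ovalbumin}, in which the EF1A promoter drives ovalbumin, a model antigen. It was given IFN-γ at 50 ng/ml for 24 hours (3 libraries) or left untreated (2 libraries). The parental B16-F10 line, called WT here, was likewise given IFN-γ (3 libraries) or left untreated (2 libraries). The design sets the IFN-γ response of the OVA line beside that of its parent. The labels name 1 OVA line and 1 WT line and do not say whether a line is a clone, so a difference between the lines cannot be told apart from a difference between these particular cultures.

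Immediate early genes are switched on within minutes of a signal, without new protein synthesis, by kinase cascades that act on factors already bound at their promoters. Their transcripts are short-lived, and most encode transcription factors. FOS and JUN proteins pair to form AP-1, EGR1 is a zinc finger activator, and the NR4A proteins are orphan nuclear receptors. In melanoma cells the MAP kinase cascade feeds these genes, and IFN-γ acts mainly through another route, which starts at its receptor with JAK kinases. The samples were taken a day after IFN-γ was added, so the values describe the level reached then and not the early burst.

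The promoters of Nr4a3, Nr4a1, Fos and Junb are shown. Nr4a3 and Nr4a1 are close relatives whose values under IFN-γ differed, as Nr4a3 was higher in OVA alone and Nr4a1 fell in both lines. Fos and Junb had the largest increases among the 10 genes. Sequences are from RefSeq (GRCm38.p6), and each gives the 250 bases before the transcription start, 5′ to 3′ on the gene's strand. Promoters of 7 of the 10 genes were searched, and those of Egr1, Fosl1 and Ier2 were not. They lie at chr4:48045055-48045304 (plus strand) for Nr4a3, chr15:101266596-101266845 (plus strand) for Nr4a1, chr12:85473640-85473889 (plus strand) for Fos and chr8:84978749-84978998 (minus strand) for Junb. Capitals mark TGACG, the half-site of the cyclic AMP response element, on either strand (CGTCA where it is read from the other strand).
Nr4a3: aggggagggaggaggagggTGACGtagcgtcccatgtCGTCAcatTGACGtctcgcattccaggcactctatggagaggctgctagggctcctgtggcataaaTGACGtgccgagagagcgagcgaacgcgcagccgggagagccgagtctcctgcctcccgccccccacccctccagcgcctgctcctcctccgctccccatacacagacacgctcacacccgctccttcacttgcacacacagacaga
Nr4a1: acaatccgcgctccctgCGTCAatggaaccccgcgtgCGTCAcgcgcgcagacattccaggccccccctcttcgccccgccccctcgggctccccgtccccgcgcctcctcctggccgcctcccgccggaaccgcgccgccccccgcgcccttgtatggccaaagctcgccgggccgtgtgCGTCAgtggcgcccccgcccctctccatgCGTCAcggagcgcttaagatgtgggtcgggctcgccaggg
Fos: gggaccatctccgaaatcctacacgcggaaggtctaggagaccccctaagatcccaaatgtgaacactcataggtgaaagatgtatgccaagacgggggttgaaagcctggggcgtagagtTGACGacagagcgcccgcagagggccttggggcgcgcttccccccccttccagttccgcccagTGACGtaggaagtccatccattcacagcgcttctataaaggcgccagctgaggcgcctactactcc
Junb: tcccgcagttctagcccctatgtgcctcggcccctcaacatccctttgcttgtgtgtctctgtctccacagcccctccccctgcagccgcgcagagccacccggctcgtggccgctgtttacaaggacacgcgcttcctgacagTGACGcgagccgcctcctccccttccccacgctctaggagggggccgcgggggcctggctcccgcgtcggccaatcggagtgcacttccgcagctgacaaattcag
Nr4a3 and Nr4a1 each held TGACG at 4 places, Fos at 2, and Junb and Fosb at 1, and Jun and Ier3 did not hold it. Of 32851 promoter windows of the same length, 17.8% held TGACG and 0.137% held it at 4 or more places. In Nr4a3 the matches began 231, 213, 205 and 147 bases before the start, and in Nr4a1 they began 233, 213, 69 and 40 bases before it. Other patterns were searched on both strands and had no match in the 7 windows. These were the AP-1 pattern TGANTCA (in 6.75% of all windows) and the CArG box of serum response factor (1.47%). A match or its absence describes these letters only.

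Total counts per library ran from 17728722 to 19642533. The melanocyte genes Pmel, Mlana, Tyr, Tyrp1, Dct and their regulators Mitf and Sox10 summed to between 23100 and 24500 CPM (counts scaled to library size, with TMM factors) in all groups. The T cell marker Cd3e and the leukocyte marker Ptprc had no counts in any group, and the 6 T cell markers summed to at most 0.329 CPM per library. The 6 macrophage markers summed to 3.25 to 3.57 CPM in treated OVA against 2.16 to 2.96 CPM untreated, and 3.46 to 5.04 CPM in treated WT against 2.37 to 3.25 CPM untreated. Most of that sum was Cd68, at a mean of 2.93 against 1.80 CPM in OVA and 3.36 against 1.92 CPM in WT. Lyz2 went the other way, at 0.485 against 0.708 CPM in OVA and 0.680 against 0.861 CPM in WT. The 6 fibroblast markers summed to 4.18 to 5.96 CPM in treated OVA against 6.44 to 6.79 CPM untreated, and 4.71 to 5.24 CPM in treated WT against 6.33 to 7.67 CPM untreated. Epithelial markers summed to at most 1.57 CPM and endothelial markers to at most 1.06 CPM per library. Heat shock genes, a list of stress-induced chaperones, summed to 7610 to 7910 CPM in treated OVA, 7810 to 7900 CPM in untreated OVA, 7720 to 7990 CPM in treated WT and 7710 to 7730 CPM in untreated WT. Of 11 tested heat shock genes, 6 were higher and 3 lower with IFN-γ averaged over the lines (31.2% and 27.1% of all genes), and the part of these lists in the results below was not tested. In bulk RNA, fewer cells expressing a gene and less RNA per cell cannot be told apart.

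Egr1 (ENSMUSG00000038418), the zinc finger factor, was at 39.7, 42.0 and 41.2 CPM in OVA given IFN-γ, against 45.0 and 43.3 CPM in untreated OVA. In WT it was at 62.4, 63.5 and 62.6 CPM with IFN-γ, against 44.2 and 46.4 CPM untreated. All treated OVA libraries thus lay below the untreated ones, and all treated WT libraries lay above theirs. The log2 change was −0.11 (SE 0.048) in OVA and 0.47 (SE 0.045) in WT, a difference of −0.58 (SE 0.066). In order of level, treated WT was highest, untreated WT and untreated OVA overlapped, and treated OVA was lowest.

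Nr4a3 (ENSMUSG00000028341), an orphan nuclear receptor, had the other pattern. It was at 117, 113 and 109 CPM in OVA given IFN-γ, against 80.1 and 81.8 CPM in untreated OVA. In WT it was at 129, 130 and 122 CPM with IFN-γ, against 128 and 122 CPM untreated. The OVA groups did not overlap and the WT groups did. The log2 change was 0.48 (SE 0.042) in OVA and 0.02 (SE 0.040) in WT, a difference of 0.46 (SE 0.058). Treated and untreated WT shared the top of the order, treated OVA came below both, and untreated OVA was lowest. Set against WT, the level of Nr4a3 in OVA differed by −11.0% with IFN-γ and by −35.2% untreated.

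These differences of response chose the set. The differences of the other 7 tested genes, given likewise as a description, ran from −0.28 (SE 0.12) for Fos to 0.71 (SE 0.60) for Fosb. Jun differed by 0.19 (SE 0.061), Ier3 by −0.11 (SE 0.090), Ier2 by −0.04 (SE 0.12), Junb by −0.03 (SE 0.096) and Nr4a1 by −0.01 (SE 0.075).

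**Figure D1:**
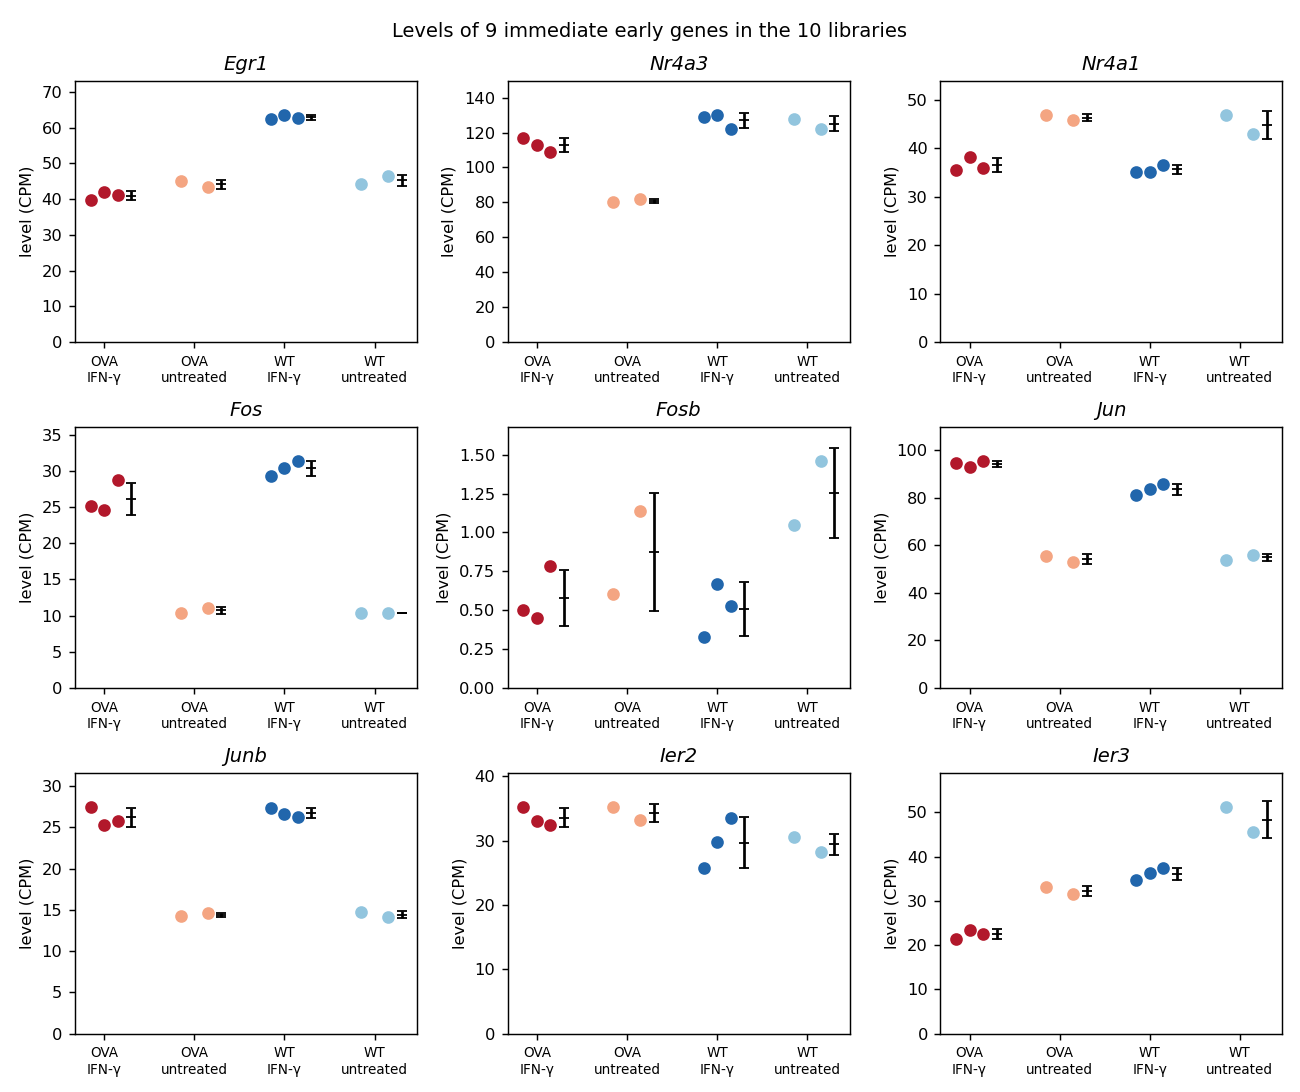
Levels in CPM (vertical axis, from 0) of the 9 genes with counts, in OVA and WT libraries with and without IFN-γ. Points are libraries, dashes with bars are mean ± SD. Egr1 stands apart in treated WT (62.4 to 63.5 CPM) and Nr4a3 in untreated OVA (80.1 and 81.8 CPM), while Fos, Jun and Junb are higher with IFN-γ in both lines.

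The average of the responses in the 2 lines is uncorrelated with their difference, because the lines have equal numbers of libraries, and was tested for all genes with edgeR's quasi-likelihood test, adjusted by Benjamini-Hochberg over the 15526 genes. Of the 9 tested immediate early genes, 5 rose (31.2% of all genes did), 3 fell (27.1%) and 1 was not called, where 58.2% of all genes were called in either direction. The 5 include Egr1 and Nr4a3, picked for their responses, so neither their count nor a test of these genes is free of that choice. As a description, Egr1 was higher by 0.18 on the log2 scale (SE 0.033), an average of a small negative value in OVA and a positive one in WT. Nr4a3 was higher by 0.25 (SE 0.029). Within each line the other 7 tested genes were tested as well. In OVA 3 of them rose (25.9% of all genes) and 2 fell (22.9%), where 48.8% of all genes were called. In WT 3 rose (24.5%) and 3 fell (19.7%), where 44.2% were called. A call was thus common among all genes.

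Fos (ENSMUSG00000021250), a partner in AP-1, had the largest increase of the set. It was at 25.2, 24.6 and 28.7 CPM in treated OVA, against 10.4 and 11.1 CPM in untreated OVA. In treated WT it was at 29.3, 30.4 and 31.4 CPM, against 10.3 and 10.3 CPM in untreated WT. Treated and untreated libraries did not overlap in either line. Fos rose 2.43-fold in OVA (log2 1.28, SE 0.082, adjusted p = 9.4e-10) and 2.95-fold in WT (log2 1.56, SE 0.082, adjusted p = 5.88e-11, edgeR).

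Jun (ENSMUSG00000052684) and Junb (ENSMUSG00000052837), which encode FOS partners in AP-1 dimers, rose in both lines. Jun was at 94.5, 92.8 and 95.4 CPM in treated OVA, against 55.6 and 52.8 CPM in untreated OVA. In WT it was at 80.9, 83.5 and 85.8 CPM treated, against 53.9 and 55.9 CPM untreated. Every treated library was above every untreated one, and the treated OVA libraries were above the treated WT ones. The rise was 0.80 on the log2 scale in OVA (SE 0.043, adjusted p = 8.41e-11) and 0.60 in WT (SE 0.043, adjusted p = 4.42e-09, edgeR). Junb was at 27.5, 25.3 and 25.8 CPM in treated OVA against 14.2 and 14.6 CPM untreated, and at 27.4, 26.6 and 26.2 CPM in treated WT against 14.7 and 14.1 CPM untreated. It rose by 0.86 in OVA (SE 0.067, adjusted p = 1.09e-08) and 0.89 in WT (SE 0.067, adjusted p = 7.14e-09, edgeR). In the GENCODE M21 annotation, 7.28% of Jun's exon bases are shared with the antisense gene Junos (9 to 18 counts per library) and 7.52% of Junb's with Prdx2 on the other strand (2268 to 2625 counts), and the libraries are not described as stranded. How many reads fell in the shared bases was not measured, so the counts of both genes carry that uncertainty.

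Fosb (ENSMUSG00000003545), a relative of Fos, was near the lower end of detection, with 6 to 26 counts per library. Its level was 0.504, 0.450 and 0.781 CPM in treated OVA, against 0.603 and 1.14 CPM untreated. In WT it was 0.325, 0.669 and 0.524 CPM treated, against 1.05 and 1.46 CPM untreated. The OVA groups overlapped and the WT groups did not. Fosb fell by 1.29 in WT on the log2 scale (SE 0.42, adjusted p = 0.0183, edgeR), and its value in OVA was −0.58 (SE 0.43, adjusted p = 0.288). Leaving out WT untreated replicate 2 ended the WT call (adjusted p = 0.172), as did leaving out WT IFN-γ replicate 1 (0.0619) or using DESeq2 (0.0527). Averaged over the lines it fell by 0.94 (SE 0.30, adjusted p = 0.0134), a call that ended without WT untreated replicate 2 (0.0721) or OVA untreated replicate 2 (0.134). Fosl1 (ENSMUSG00000024912), which encodes the AP-1 subunit FRA1, was listed at 0 in all 10 libraries. A count of 0 allows up to 0.169 CPM in a library (3 counts, counting error only), and 57.2% of Fosl1's exon bases in GENCODE M21 are shared with Ccdc85b on the other strand, which had 122 to 158 counts.

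Nr4a1 (ENSMUSG00000023034), the relative of Nr4a3, fell in both lines. It was at 35.5, 38.1 and 35.9 CPM in treated OVA, against 46.8 and 45.8 CPM in untreated OVA. In treated WT it was at 35.1, 35.1 and 36.6 CPM, against 46.8 and 42.8 CPM in untreated WT. Treated libraries lay below untreated ones in each line, and the lines overlapped. Nr4a1 fell by 0.34 in OVA on the log2 scale (SE 0.053, adjusted p = 4.45e-05) and by 0.33 in WT (SE 0.053, adjusted p = 7.43e-05, edgeR).

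Ier3 (ENSMUSG00000003541), an early gene that modulates cell survival, also fell in both lines. It was at 21.3, 23.5 and 22.6 CPM in treated OVA against 33.1 and 31.5 CPM untreated, and at 34.8, 36.3 and 37.5 CPM in treated WT against 51.3 and 45.5 CPM untreated. The 4 groups did not overlap, with untreated WT highest and treated OVA lowest. Ier3 fell in OVA (log2 −0.53, SE 0.068, adjusted p = 6.08e-06) and in WT (log2 −0.42, SE 0.059, adjusted p = 1.8e-05, edgeR). Ier2 (ENSMUSG00000053560), an early nuclear protein gene, was at 35.3, 33.0 and 32.5 CPM in treated OVA and 35.3 and 33.3 CPM in untreated OVA, and at 25.7, 29.8 and 33.6 CPM in treated WT and 30.6 and 28.3 CPM in untreated WT. Treated and untreated libraries overlapped in each line, with log2 changes of −0.03 in OVA (SE 0.082, adjusted p = 0.79) and 0.01 in WT (SE 0.085, adjusted p = 0.926, edgeR).

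**Figure D2:**
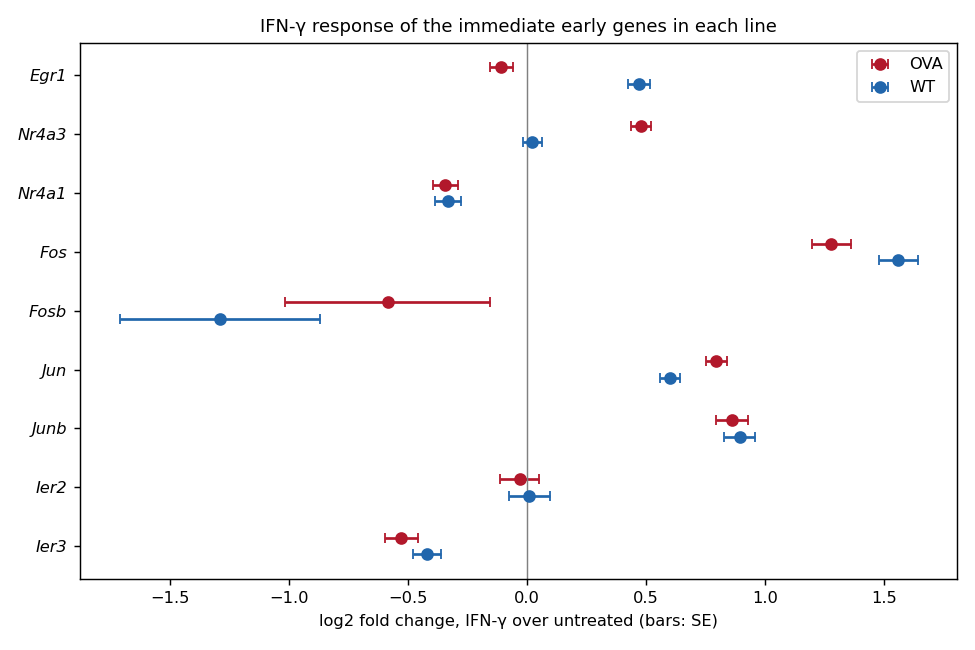
Log2 fold change of IFN-γ over untreated (horizontal axis) with its SE for each gene, OVA above WT. Fos, Jun and Junb lie to the right of 0 and Nr4a1 and Ier3 to the left in both lines, while Egr1 is at 0.47 in WT and −0.11 in OVA and Nr4a3 at 0.02 in WT and 0.48 in OVA.

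Between the lines, Ier3 and Nr4a3 were lower in OVA with and without IFN-γ, while Egr1 was lower among treated cells and overlapped untreated. The comparison over both treatments weights the treated difference by 0.6 and the untreated one by 0.4, which makes it uncorrelated with the difference of responses. In it 3 of the 9 genes were lower in OVA (9.69% of all genes were) and 2 were higher (9.53%), where 19.2% of all genes were called. The 3 include Egr1 and Nr4a3, picked for responses that differ between the lines. Neither their count nor a test of these genes is free of that choice. Ier3 was lower (−36.2%, log2 −0.65, SE 0.045, adjusted p = 3.3e-08, edgeR). The weighted values of the picked genes, given without a test, were −23.4% for Egr1 (log2 −0.38, SE 0.032) and −21.6% for Nr4a3 (log2 −0.35, SE 0.028). As a description, the log2 difference of Egr1 was −0.62 (SE 0.041) with IFN-γ and −0.04 (SE 0.052) untreated, where the libraries overlapped. That of Nr4a3 was −0.17 (SE 0.036) with IFN-γ and −0.63 (SE 0.046) untreated, with no overlap in either condition.

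Jun was higher in OVA by 0.10 (SE 0.029, adjusted p = 0.0275) and Ier2 by 0.19 (SE 0.058, adjusted p = 0.0296, edgeR) over both treatments. Neither call was stable. That of Jun was lost without WT untreated replicate 1, WT IFN-γ replicates 1 or 2, OVA untreated replicate 1 or OVA IFN-γ replicate 3 (adjusted p = 0.0537 to 0.0969), and with DESeq2 (0.0958). That of Ier2 was lost without WT untreated replicate 2, WT IFN-γ replicates 1 or 2, OVA untreated replicate 1 or OVA IFN-γ replicate 1 (adjusted p = 0.0592 to 0.0984). Fos, Fosb, Junb and Nr4a1 were not called over both treatments, with log2 differences of −0.10 (SE 0.056), −0.10 (SE 0.31), −0.02 (SE 0.045) and 0.04 (SE 0.037).

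Among treated cells, 1 of the 7 genes not picked by their response was higher in OVA (6.36% of all genes) and 2 were lower (7.99%), where 14.4% were called. Jun was higher by 12.9% (log2 0.18, SE 0.036, adjusted p = 0.00333) and Ier3 lower (−38.0%, log2 −0.69, SE 0.060, adjusted p = 7.36e-07, edgeR). Fos was lower (−13.8%, log2 −0.21, SE 0.061, adjusted p = 0.0253, edgeR), with no overlap, but the call was lost with DESeq2 (0.116) and without WT IFN-γ replicates 2 or 3 or OVA IFN-γ replicates 1 or 2 (0.0706 to 0.119). Ier2 was not called (log2 0.17, SE 0.075, adjusted p = 0.135), and was called without WT IFN-γ replicate 3 (0.0118) or with no filter on low counts (0.0385). Among untreated cells Ier3 alone of the 7 was called by edgeR, lower in OVA (−33.3%, log2 −0.58, SE 0.067, adjusted p = 3.85e-05), where 5.53% of all genes were called, 2.55% lower and 2.98% higher. None was called higher by edgeR, DESeq2 or limma-voom, with 1 higher at an unadjusted p under 0.05, a threshold at which all genes were not counted.

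**Figure D3:**
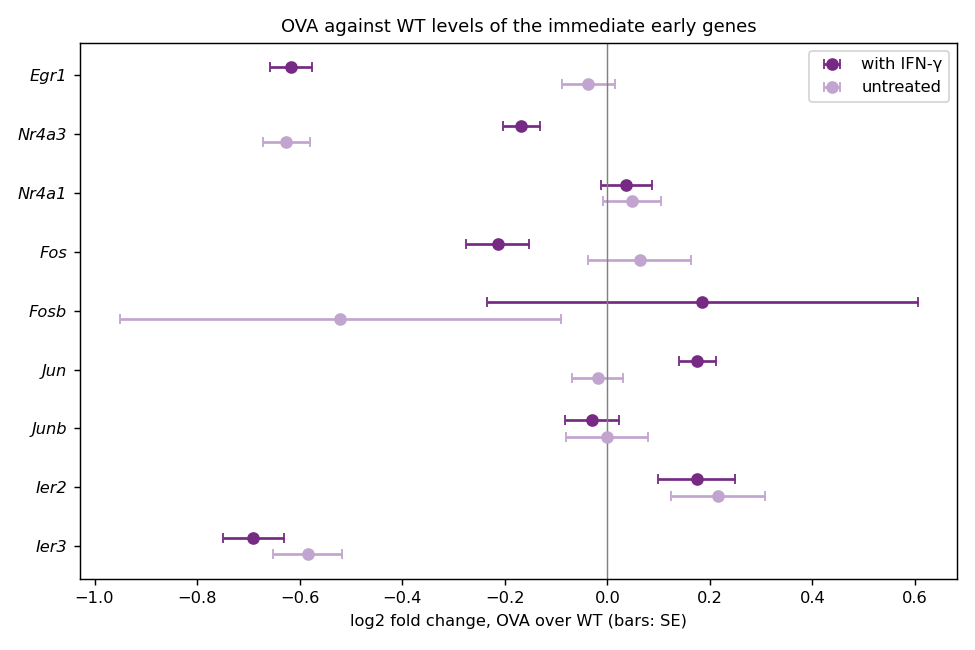
Log2 fold change of OVA over WT (horizontal axis) with its SE for each gene, with IFN-γ above untreated. Ier3 is lower in OVA in both conditions (−0.69 and −0.58), Egr1 lies at −0.62 with IFN-γ and −0.04 untreated, and Nr4a3 at −0.17 with IFN-γ and −0.63 untreated.

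Of 10 other AP-1, EGR and NR4A genes, 7 were tested and all 7 rose when averaged over the lines (31.2% of all genes rose), while Egr2, Egr3 and Egr4 were too low to be tested. Within the lines, all 7 rose in OVA (25.9% of all genes) and 4 rose in WT (24.5%), by edgeR, where DESeq2 called 6 in OVA and 3 in WT. The 3 not called in WT were Jund (log2 0.06, SE 0.046), Nr4a2 (0.03, SE 0.13) and Batf (1.05, SE 0.43). Batf changed no more in OVA (log2 0.98, SE 0.38, adjusted p = 0.0409, edgeR) than in WT. Its call in OVA was lost with DESeq2 (0.154), no filter on low counts (0.0992) or a replicate block (0.0527). Leaving out OVA IFN-γ replicate 2 (0.125) or 3 (0.0682) also ended it. The log2 change of Batf in OVA was 0.72 without OVA untreated replicate 1 and 1.29 without OVA untreated replicate 2. Atf3, a stress-induced partner of AP-1 factors, rose 4.67-fold (log2 2.22, SE 0.063, adjusted p = 5.56e-15), to 47.2 ± 4.53 CPM in treated OVA against 9.04 ± 0.927 CPM untreated, and 41.1 ± 0.324 CPM in treated WT against 9.84 ± 0.607 CPM untreated (SD, n = 3 treated and 2 untreated). Fosl2, which encodes the AP-1 subunit FRA2, rose by 0.58 (SE 0.058, adjusted p = 1.74e-07, edgeR) and Nab2, a corepressor that binds EGR1, by 0.41 (SE 0.063, adjusted p = 2.78e-05, edgeR). The list's median was 0.41, against 0.0024 for all genes. Nr4a2 was not called with DESeq2 (adjusted p = 0.06) or without WT untreated replicate 2 (0.0566) or OVA untreated replicate 2 (0.0558).

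Other immediate early genes were mixed. Of 29, 28 were tested, 15 rose (31.2% of all genes did) and 7 fell (27.1%), with a median of 0.22. Zfp36, whose protein speeds the decay of short-lived messages, rose 3.14-fold (log2 1.65, SE 0.050, adjusted p = 1.44e-14), to 27.2 ± 0.852 CPM in treated OVA against 10.0 ± 0.526 CPM untreated, and to 32.2 ± 0.774 CPM in treated WT against 8.84 ± 0.303 CPM untreated (SD, n = 3 and 2). The transcription factor genes Csrnp1 (log2 1.97, SE 0.066) and Klf6 (0.92, SE 0.029) rose as well. Feedback genes of the MAP kinase cascade mostly fell. Of 18, 17 were tested, 12 fell (27.1% of all genes did) and 2 rose by edgeR (median −0.27). DESeq2 called 9 lower and 2 higher, as did edgeR with a replicate block. Spred2, an inhibitor of RAS to RAF signalling, fell by 0.93 (SE 0.044, adjusted p = 9e-12), as did the Sprouty gene Spry4 (log2 −1.88, SE 0.18) and the ETS factor gene Etv5 (log2 −1.40, SE 0.15). The ERK phosphatase gene Dusp6 rose by 0.83 (SE 0.037, adjusted p = 3.33e-12, edgeR) and the stress kinase phosphatase gene Dusp10 by 1.43 (SE 0.15).

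**Figure D4:**
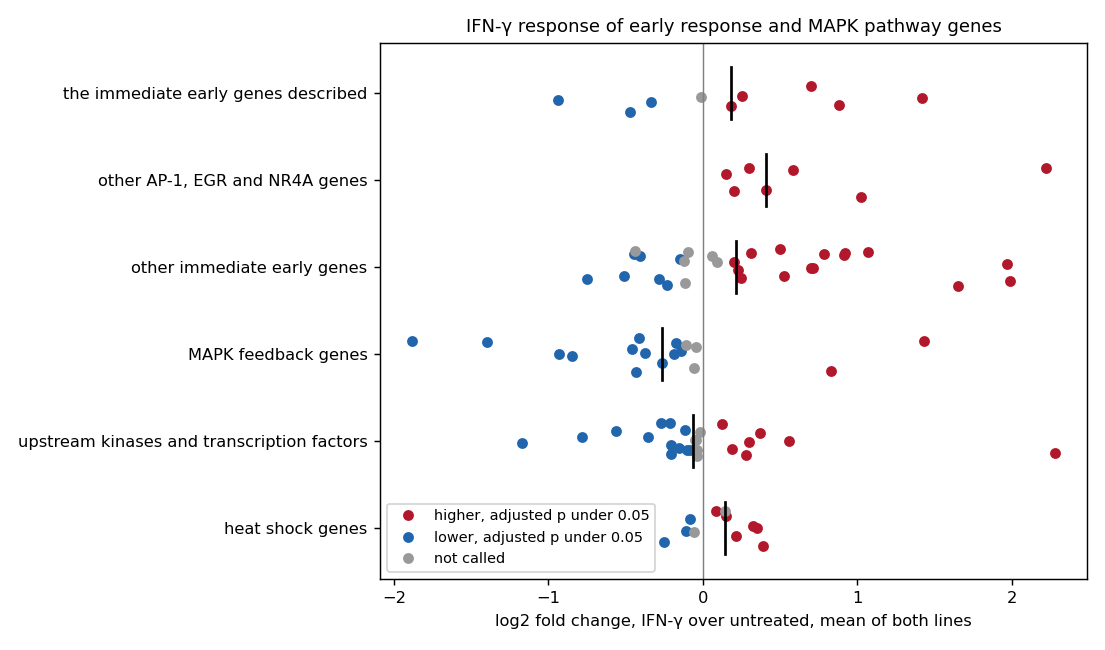
Log2 change with IFN-γ averaged over the lines (horizontal axis) for tested genes of each list. Points are genes, coloured by the edgeR call, and black lines are medians. All 7 other AP-1, EGR and NR4A genes lie to the right of 0, and 12 of 17 MAP kinase feedback genes were called lower.

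For the difference of responses, none of the 7, 28 and 17 tested genes of these lists was called by edgeR, where 0.341% of all genes were (0.0773% higher and 0.264% lower). At an unadjusted p under 0.05 there were 3, 4 and 3. The share of all genes at that unadjusted threshold was not counted, so these counts cannot be set against it. DESeq2 called 1 of the 28, Klf6 (adjusted p = 0.0143), and limma-voom called none in the 3 lists. Klf6 was also called by edgeR without WT untreated replicate 2 (0.042) or WT IFN-γ replicate 3 (0.0246), with no filter (0.00253) and with a filter of 1 CPM in 5 samples (0.0344). Jund, of the 7, was called by edgeR with no filter (0.0109) and without WT IFN-γ replicate 3 (0.0354). Between the lines over both treatments, most genes of these lists were not called by edgeR. Of the 28, 6 were higher in OVA and 2 lower, where 9.53% and 9.69% of all genes were. Of the 17, 4 were higher and 0 lower, and of the 7, 0 were higher and 1 lower. Plk2, a kinase gene, was higher in OVA by 0.78 (SE 0.073, adjusted p = 1.22e-06) and Btg2, an antiproliferative gene, by 1.46 (SE 0.17, adjusted p = 1.49e-05, edgeR). Dusp6 was higher by 0.35 (SE 0.035, adjusted p = 2.77e-06) and Etv5 by 1.24 (SE 0.15, adjusted p = 2.2e-05, edgeR). Dusp6 stood at 133 ± 2.46 CPM in treated OVA and 107 ± 3.62 CPM in treated WT (SD, n = 3 each), and at 77.2 ± 4.43 CPM in untreated OVA and 58.3 ± 5.46 CPM in untreated WT (SD, n = 2 each).

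The genes whose log2 CPM followed Egr1 most closely over the 10 libraries, of 10356 compared, were Csnk1a1 (Pearson's r = 0.961), Mideas (0.931), Hk2 (0.926), Actn4 (0.924) and Dnajc16 (0.922). Hk2, the hexokinase gene, averaged 313 CPM in treated OVA, 276 CPM in untreated OVA, 509 CPM in treated WT and 359 CPM in untreated WT, while Csnk1a1 stayed between 299 and 320 CPM. For Nr4a3 they were Chchd10 (0.972), Gm45869 (0.959), Hemk1 (0.954), Naglu (0.943) and G530011O06Rikx (0.933). Chchd10, a mitochondrial gene, averaged 128 CPM in treated OVA, 110 CPM in untreated OVA, 142 CPM in treated WT and 140 CPM in untreated WT. These are the highest values among many genes over libraries that share 4 groups, and describe likeness of pattern only.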

How the data were processed

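The authors deposited 1 table of unnormalised counts, with a row per Ensembl gene and a column per library. Per the submitters' processing notes, the tools were featureCounts 1.6.0 and HISAT2 2.0.5, on GRCm39. Strand setting, annotation release and treatment of multi-mapping reads: not given in the sources used here. Per the labels' protocols, libraries were poly-A selected. Counts were tested in R 4.3.3 with edgeR 4.0.16 (two-sided quasi-likelihood F test after TMM scaling, filterByExpr on group, Benjamini-Hochberg over 15526 genes, threshold 0.05), with all 10 libraries and the 4 groups as means. SE is the log2 change divided by the square root of F. Levels are CPM with TMM factors. Nothing in the labels says whether replicates came from separate cultures, and p-values measure the spread between these libraries, which can be technical. The members and lists were chosen with earlier results of these data known. From each other list the text could name up to 4 called genes per comparison, those with the smallest adjusted p. Dusp10, Nr4a2, Batf and, for the averaged response, Etv5 fall outside that rule and were chosen after their values were seen. Genes like Egr1 and Nr4a3 are the 5 with the highest Pearson r, among tested genes averaging at least 5 CPM. The pipeline was tested on simulated data. Alternatives were DESeq2 1.42.0, limma-voom (limma 3.58.1), other filters, a replicate block, only the groups compared, and each library left out. No unused columns of samples remained. The ovalbumin transgene was not analysed here, and a list of IFN-γ target genes and 1 promoter pattern are not reported here.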

Additional observations from a re-analysis of the deposited data

Results flagged for a closer look

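Egr1 was flagged because treated libraries lay on opposite sides of the untreated ones in the lines. Every treated OVA library lay below the untreated OVA libraries (39.7 to 42.0 against 43.3 and 45.0 CPM). Every treated WT library lay above the untreated WT ones (62.4 to 63.5 against 44.2 and 46.4 CPM). The share of all genes that separate in this way was not counted. The log2 change in OVA was small (−0.106, SE 0.048). The difference of responses was −0.578 on the log2 scale. No test of it is given here, since it was among the values that chose the genes.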

How the results depend on the processing

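No member value changed direction among called values in any alternative. Of 970 member values recomputed, 21 lost a call, 2 gained one and 947 counted as unchanged. Tested values counted as unchanged where they stayed on their side of the threshold, and an uncalled value could change sign. Values given without a test counted as unchanged where they moved by no more than the SE of the main fit. With DESeq2, members higher in OVA over both treatments were 1 against 2, and members lower in treated OVA 1 against 2. All genes called with DESeq2 numbered 1957 against 2985 for OVA against WT over both treatments, 1454 against 2229 with IFN-γ, 552 against 859 untreated, and 103 against 53 for the difference of responses. With no filter on low counts, 2 members against 1 were higher in treated OVA, and 284 genes were called for the difference of responses. Without 1 library in turn, members higher in OVA over both treatments ran from 0 to 2, members higher in treated OVA from 1 to 2 and members lower there from 1 to 2. Genes called ran from 1431 to 2408 for OVA against WT with IFN-γ, from 350 to 1012 untreated and from 21 (without WT untreated replicate 1) to 107 (without WT IFN-γ replicate 3) for the difference of responses. A fit without 1 of 2 untreated libraries assumes that the lone one varies like the other groups. The cause of these shifts was not tested.

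Same-numbered libraries did not deviate together (correlations −0.0721 to 0.0349), so the numbers were not taken as pairs. With 3 pairs, 1 of 6 treated libraries correlated best with its own number. A replicate block called 165 genes for the difference of responses (Klf6 among them), against 53 without it, and changed no call of a member. Low counts limit Fosb and Fosl1.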

Other observations

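Among kinases and transcription factors that act on immediate early genes, calls with IFN-γ went both ways. Of 24 tested, 7 rose (31.2% of all genes did) and 12 fell (27.1%) when averaged over the lines. Of all genes, 58.2% were called in either direction, and rises were no more common in this list. Those named here had the smallest adjusted p of the list. Crem, a cyclic AMP responsive factor, rose 4.87-fold (log2 2.28, SE 0.044, adjusted p = 1.5e-17, edgeR), to 64.4 ± 1.12 CPM in treated OVA against 14.2 ± 0.166 CPM untreated, and 65.6 ± 2.79 CPM in treated WT against 12.5 ± 0.855 CPM untreated (SD, n = 3 and 2). Elk3, a ternary complex factor that binds with serum response factor, fell by 1.17 on the log2 scale (SE 0.045), to 19.3 ± 0.783 CPM in treated OVA against 44.6 ± 1.37 CPM untreated, and 20.3 ± 1.69 CPM in treated WT against 44.5 ± 0.416 CPM untreated. Mapk9, which encodes the kinase JNK2, rose by 0.56 (SE 0.027), and Rps6ka1, which encodes a kinase downstream of ERK, fell by 0.78 (SE 0.056).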
